A study of Mus musculus with 12 samples.

Results

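CD103+CD11b- DCs of the mouse gut were compared between Cbfb-cKO mice, which carry the genotype Cbfb F/F: CD11c-Cre, and mice labelled wild type (WT). The comparison takes 6 of the 12 libraries of the series, 3 of each genotype, and the other 6 hold CD103-CD11b+ DCs of the same genotypes. All mice are labelled as of mixed background, no age is given in the labels, and per the study each of the 3 libraries of a group came from a different mouse. Of 53801 genes in the count tables, the 20580 that reached 5 counts in any of the 12 libraries were tested. The study asked whether the DC subsets that remain in these mice have an altered expression profile when Cbfb is lost. Cre is driven by a CD11c transgene, the study saw some recombination of Cbfb in gut CD4+ T cells as well, and the labels do not state whether the WT mice of the RNA-seq carried Cre.

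Cbfb is the partner that Runx1, Runx2 and Runx3 need for stable binding to DNA, so its loss is meant to disable all Runx proteins of a cell together. Runx complexes switch genes on or off in many blood lineages, in part downstream of TGF-beta. CD103+CD11b- DCs of the gut are conventional type 1 DCs (cDC1s), which depend on Irf8 and Batf3 and are known for taking up dead cells and presenting their antigens to CD8 T cells, whereas CD11b+ DCs are mostly type 2 (cDC2s), which use Irf4 and carry Sirpa.

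Each library held 2161929 to 5863484 counts on genes, and levels are given as CPM, the count scaled to a common library size with TMM factors. Replicate 3 of each genotype stood apart from the other 2 CD103+CD11b- libraries, with a chi-square per degree of freedom over genes of 11.4 and 11.5 in WT and 8.49 and 9.74 in Cbfb-cKO, against 2.46 and 3.65 for replicates 1 and 2. The cDC1 label held in both genotypes. The 18 cDC1 markers summed to 7175 to 10421 CPM in WT and 9374 to 11581 in Cbfb-cKO, and none was called. Their median log2 fold change was 0.29, with 4 of the 18 below 0. Batf3, Tlr3, Cadm1, Clec9a, Cd8a and Xcr1 were higher in every Cbfb-cKO than in every WT library. Over all genes tested, 18.1% were separated in either direction. Xcr1, the chemokine receptor that defines cDC1s, was at 472, 439 and 384 CPM in WT replicates 1 to 3 and 521, 557 and 680.1 in Cbfb-cKO replicates 1 to 3, against 18.2, 4 and 30.2 in WT CD103-CD11b+ DCs. Itgae, which encodes CD103, was at 899, 785 and 616 and 657, 664 and 776 CPM, and Itgam, which encodes CD11b, at 4.79, 3.66 and 4.53 and 5.99, 11 and 7.43, where WT CD103-CD11b+ DCs had 77.9, 104 and 89.6.

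The read count of the targeted gene did not fall. Cbfb (chr8:105170674-105217989, GRCm38, plus strand) was at 228, 216 and 199 CPM in WT and 221, 215 and 290.2 in Cbfb-cKO, a log2 fold change of 0.17 ± 0.19 (SE; adjusted p = 0.876). The count covers the whole gene, so it does not show whether the floxed part was deleted, and Cbfb-cKO is used here as the label of the libraries. Among the Runx genes, Runx1 was at 662, 645 and 675 CPM in WT and 906, 976 and 1109 in Cbfb-cKO, every Cbfb-cKO library above every WT library, with a log2 fold change of 0.59 ± 0.19 that did not pass the test (adjusted p = 0.22). Runx2 went the other way, from 349, 324 and 155 to 129, 160.4 and 68 CPM, with overlap between the genotypes and an adjusted p of 0.125. It passed without WT replicate 3 (log2 fold change -1.50, adjusted p = 0.0258) and in DESeq2 (-1.17, adjusted p = 0.016). Without replicate 3 of both genotypes it also passed (-1.22, adjusted p = 0.0115), and in the other fits tried it did not. Runx3 was at 296, 232 and 210.0 CPM in WT and 218, 232 and 224 in Cbfb-cKO (log2 fold change -0.13 ± 0.19, adjusted p = 0.925).

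Genes that fell outnumbered those that rose. At a false discovery rate (FDR) under 0.05 and a fold change over 1.3, 164 genes were lower in Cbfb-cKO (0.797% of the genes tested) and 46 were higher (0.224%). The median log2 fold change was -1.86 over the lower genes, 1.53 over the higher ones and -0.02 over all genes tested. The 3 Cbfb-cKO libraries lay wholly below or above the 3 WT libraries for all 210, where 18.1% of all genes tested were separated in this way. Most were protein-coding, 144 of the lower and 41 of the higher genes, and the rest included 11 lower and 1 higher gene of the annotation class TEC, transcripts that still await an experiment. Single libraries carried much of the power: without WT replicate 1, 2 or 3 the calls kept were 46, 47 and 147, without Cbfb-cKO replicate 1, 2 or 3 they were 50, 56 and 100, and 35 genes (30 lower and 5 higher) passed whichever of the 6 was left out. For single genes below, a library left out is always 1 of these 6. The CD103-CD11b+ libraries share the model. Without WT replicate 1, 2 or 3 of that subset 165, 157 and 148 calls were kept. Without its Cbfb-cKO replicate 1, 2 or 3 the numbers were 121, 132 and 192. Without replicate 3 of both genotypes 96 of the 210 were kept, and every call kept its sign in all these fits. Since the cells were sorted pools, fewer cells of a type and less RNA per cell cannot be told apart.

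**Figure D1:**
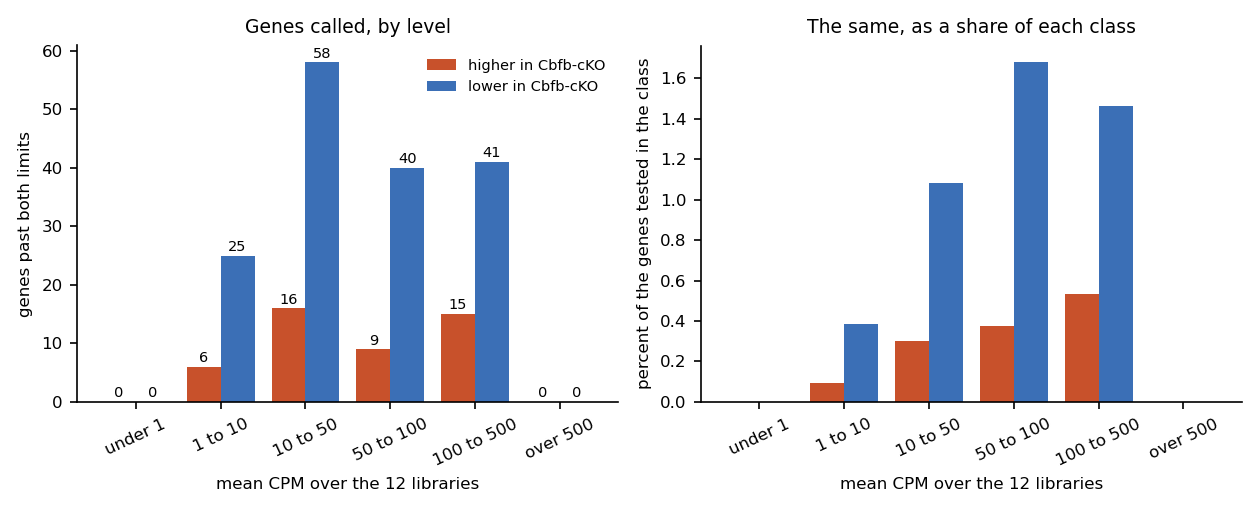
Number of genes called higher or lower in Cbfb-cKO CD103+CD11b- DCs in 6 classes of mean CPM over the 12 libraries (left) and the same as a percent of the genes tested in each class (right). Lower genes led in every class with calls, with 58 against 16 between 10 and 50 CPM, and no gene under 1 or over 500 CPM was called.

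The calls were spread over levels from 1 to 500 CPM, as the plot of calls by level shows. Of 3400 genes under 1 CPM none was called, and of 148 over 500 CPM none was. Between 1 and 10 CPM 25 genes were lower and 6 higher of 6496, and between 100 and 500 CPM 41 were lower and 15 higher of 2803. The size of a called change fell with level, from a median of 3.47 on the log2 scale between 1 and 10 CPM to 1.96, 1.35 and 1.20 in the next classes, as did the median standard error of all genes there, from 0.62 to 0.25, 0.17 and 0.15.

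**Figure D2:**
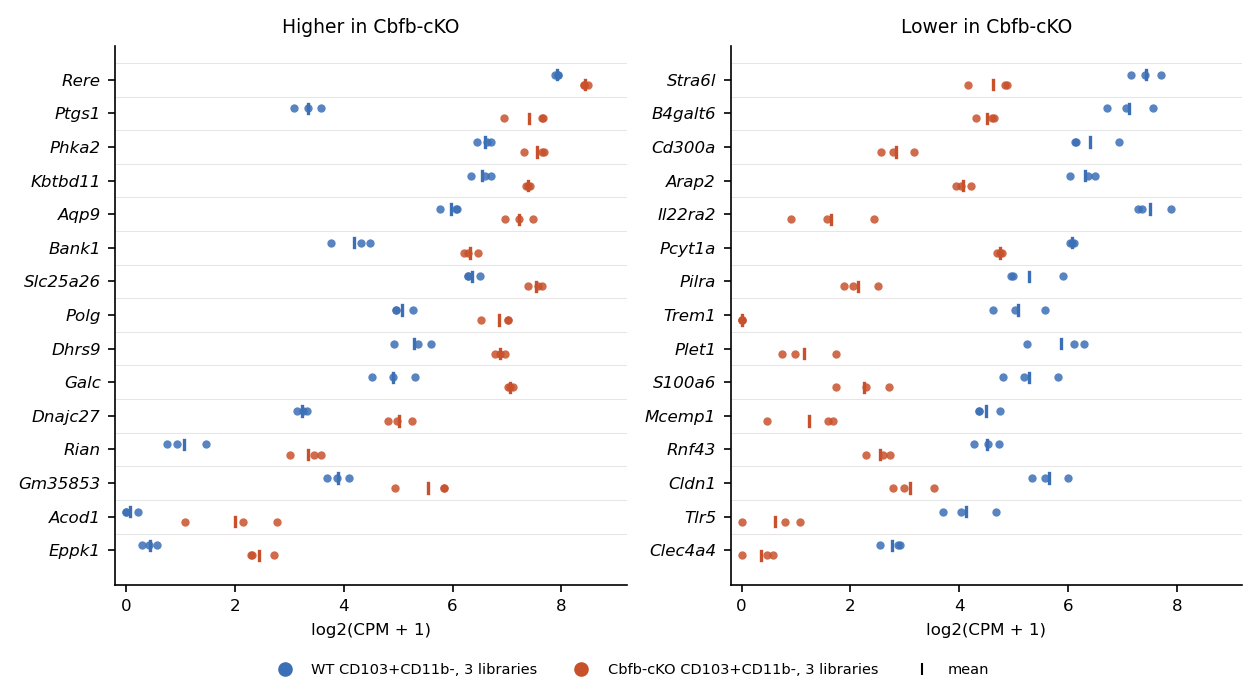
Level of the 5 genes of smallest p per direction in each of 3 bins of level, in the 3 WT and 3 Cbfb-cKO CD103+CD11b- libraries, as log2(CPM + 1), with a vertical mark at the mean. The genotypes do not overlap for any of the 30 genes, and all 3 Cbfb-cKO libraries of Trem1 sit at 0.

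Among the lower genes of high level, those with a mean of 82.4 to 415 CPM, the smallest p belonged to Arap2 (chr5:62602445-62766159, minus strand), an Arf GTPase-activating protein that responds to phosphoinositides. It was at 89.9, 81.9 and 64.8 CPM in WT and 14.4, 15.4 and 17.6 in Cbfb-cKO, a log2 fold change of -2.32 ± 0.16 (adjusted p = 0.000361). Its level was close within each genotype and 5-fold apart between them, and WT CD103-CD11b+ DCs had 183, 208 and 154 CPM. Il22ra2 (chr10:19621998-19634681, plus strand), the soluble decoy receptor that neutralises IL-22, had the largest fall of this bin. It was at 237, 163 and 155 CPM in WT and 0.888, 4.39 and 1.96 in Cbfb-cKO, 75.1-fold lower by the fit (log2 fold change -6.23 ± 0.58, adjusted p = 0.00149). Cd300a, an inhibitory receptor for phosphatidylserine and phosphatidylethanolamine, went from 122, 69.1 and 70.01 to 4.88, 8.05 and 5.87 CPM (log2 fold change -3.78 ± 0.35). B4galt6, which makes lactosylceramide, went from 188, 133 and 105 to 24, 23.4 and 18.8, and Stra6l, a relative of the retinol-binding protein receptor, from 208, 143 and 170.1 to 28.6, 27.8 and 16.8. These 5 passed whichever single library was left out.

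The middle bin, 25.8 to 81.6 CPM, held 1 gene that was lost to below detection. Trem1 (chr17:48232768-48246924, plus strand), an activating receptor that amplifies inflammatory signals through Tyrobp, was at 46.5, 31.8 and 23.8 CPM in WT and had no count in any Cbfb-cKO library, at least 39.7-fold lower (adjusted p = 0.00149). That bound takes 3 counts per library as the floor. In CD103-CD11b+ DCs Trem1 was at 95.1, 53 and 78.2 CPM in WT and 42, 44.3 and 72.4 in Cbfb-cKO. Pcyt1a, the rate-limiting enzyme of phosphatidylcholine synthesis, moved by less but with little spread, from 66.7, 67.7 and 64.3 to 26, 24.9 and 26.6 CPM (log2 fold change -1.36 ± 0.12, adjusted p = 0.00149). S100a6, a calcium-binding protein, fell from 55.7, 35.7 and 27.2 to 5.55, 3.91 and 2.35 CPM, Pilra, an inhibitory paired receptor, from 58.8, 30.9 and 30.1 to 4.66, 2.68 and 3.13, and Plet1, a surface protein of placental and epithelial progenitors, from 77.6, 67.7 and 36.9 to 0.666, 0.976 and 2.35. Their log2 fold changes were -3.27 ± 0.32, -3.47 ± 0.37 and -5.61 ± 0.63. All 5 passed whichever single library was left out.

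In the low bin, 1.15 to 25.7 CPM, the lower genes of smallest p were Mcemp1, a small membrane protein of mast cells and myeloid cells, Clec4a4, Cldn1, Tlr5 and Rnf43. Mcemp1 was at 26, 19.7 and 19.7 CPM in WT and 2, 2.2 and 0.391 in Cbfb-cKO (log2 fold change -3.70 ± 0.41, adjusted p = 0.0033). Cldn1, a tight-junction claudin, went from 39.7, 63.4 and 47 to 6.88, 5.86 and 10.6 CPM, and Rnf43, a ubiquitin ligase that removes Wnt receptors, from 25.6, 18.3 and 22 to 5.1, 5.61 and 3.91. Without 1 library the highest adjusted p of Cldn1 was 0.0597 and that of Rnf43 0.0543. Zfp819, a zinc finger gene, was also without a count in Cbfb-cKO, from 4.79, 1.83 and 4.85 CPM in WT, at least 4.46-fold lower on the same floor (adjusted p = 0.047). The most abundant genes that fell were Ssh2, a cofilin phosphatase, and Sorl1, a sorting receptor, beside Gm37347, a transcript of the class TEC. Ssh2 went from 397, 375 and 341 to 154, 175 and 212 CPM and Sorl1 from 395, 299 and 214 to 111, 99.6 and 81. Their highest adjusted p without 1 library was 0.116 for Ssh2 and 0.0523 for Sorl1, and the call of Zfp819 was lost whichever of the 6 was left out (highest adjusted p = 0.162).

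Letters of the Runx core motif, TGTGGT on either strand, were looked for in the 250 bases before the start sites that RefSeq gives (GRCm38.p6). A RefSeq window was at hand for 12567 of the genes tested, of which 13.6% held the motif, for 120 of the 164 lower genes, of which 23 (19.2%) held it, and for 36 of the 46 higher genes, of which 5 (13.9%) did. Of the 36 genes named for their p in a bin or their abundance, 28 had a window and 5 held it, all lower: Mcemp1, S100a6, Pilra, Pcyt1a and Stra6l. Shown here, for 3 of those lower genes, are the 250 bases up to the start, 5′ to 3′ on the gene's strand, with the motif in capitals. A match describes these letters and not a bound site. The window of S100a6 is chr3:90612644-90612893 (plus strand) and is the one with 3 matches, that of Mcemp1 is chr8:3665512-3665761 (plus strand) and that of Pilra is chr5:137836279-137836528 (minus strand).
S100a6: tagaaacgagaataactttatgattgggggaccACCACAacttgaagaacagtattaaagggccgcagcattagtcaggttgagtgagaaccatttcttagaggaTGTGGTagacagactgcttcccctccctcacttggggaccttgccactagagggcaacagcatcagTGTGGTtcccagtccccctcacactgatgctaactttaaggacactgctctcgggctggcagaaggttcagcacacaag
Mcemp1: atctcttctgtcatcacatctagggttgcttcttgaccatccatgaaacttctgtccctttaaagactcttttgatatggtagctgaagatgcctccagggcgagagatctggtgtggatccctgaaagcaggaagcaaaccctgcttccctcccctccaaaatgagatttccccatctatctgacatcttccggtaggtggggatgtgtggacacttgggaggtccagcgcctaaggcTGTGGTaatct
Pilra: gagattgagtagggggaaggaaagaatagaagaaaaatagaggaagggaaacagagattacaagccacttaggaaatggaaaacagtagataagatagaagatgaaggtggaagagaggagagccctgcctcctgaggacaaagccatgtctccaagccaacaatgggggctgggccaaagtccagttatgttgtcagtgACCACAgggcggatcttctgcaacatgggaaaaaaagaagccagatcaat

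Ptgs1 (chr2:36230426-36252272, plus strand), cyclooxygenase 1, which starts the synthesis of prostaglandins and thromboxane, had the largest rise among those 5 of the high bin that are named here. It was at 7.52, 9.15 and 11 CPM in WT and 199.7, 201 and 122 in Cbfb-cKO, 18.6-fold higher (log2 fold change 4.21 ± 0.54, adjusted p = 0.00536), with the 3 WT libraries below all others, CD103-CD11b+ DCs included. The other high-level genes by smallest p were Phka2, the regulatory subunit of liver phosphorylase kinase, which starts glycogen breakdown, at 86.5, 98.8 and 104 and 205, 198 and 158 CPM, Aqp9, a channel for water and glycerol, at 53.7, 66.4 and 66.3 and 149, 177 and 124, Kbtbd11 at 96.1, 103 and 80.03 and 166, 172 and 162, and Rere, a nuclear corepressor, at 235, 243 and 244 and 359, 340.2 and 342. Phka2 passed whichever single library was left out, and the highest adjusted p of the other 3 ran from 0.069 to 0.116. The most abundant genes that rose were Clasp1, a microtubule-binding protein, Nabp1, a single-strand DNA-binding protein, and Akap11, which anchors protein kinase A. They rose by 0.43, 0.83 and 0.59 on the log2 scale and none passed without WT replicate 1, 2 or 3.

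The smallest p among the genes of middle level that rose belonged to Slc25a26 (chr6:94500331-94604672, plus strand), which brings S-adenosylmethionine into mitochondria. It was at 76.9, 76.6 and 90.2 CPM in WT and 190.2, 199 and 167 in Cbfb-cKO (log2 fold change 1.19 ± 0.12, adjusted p = 0.00174). In CD103-CD11b+ DCs it was lower throughout, at 19.2, 17 and 18.6 and 19.98, 21.2 and 18.9 CPM. Polg, the polymerase that copies mitochondrial DNA, went from 30.1, 30.2 and 37.7 to 128, 129 and 90.7 CPM, Galc, which breaks down galactosylceramide in lysosomes, from 21.9, 28.8 and 38.6 to 128, 131 and 136, and Bank1, a B-cell scaffold also used in Toll-like receptor signalling, from 12.7, 19 and 21.3 to 87.7, 76.9 and 73.1. Dhrs9, a retinol dehydrogenase, rose from 29.4, 40.04 and 47.4 to 109, 115 and 124 CPM (log2 fold change 1.57 ± 0.21, adjusted p = 0.00797). Slc25a26 and Dhrs9 passed whichever single library was left out, and Polg missed without WT replicate 1 (adjusted p = 0.0555). The highest adjusted p of Galc was 0.0698 and that of Bank1 0.0697.

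At low level the genes of smallest p that rose were Dnajc27, a small GTPase with a J domain, Gm35853, Eppk1, Rian and Acod1. Dnajc27 went from 8.55, 7.78 and 9.05 to 30.6, 37.3 and 27 CPM (log2 fold change 1.90 ± 0.23, adjusted p = 0.00436) and passed whichever single library was left out. Acod1, which makes itaconate, was at 0, 0 and 0.162 CPM in WT and 1.11, 3.42 and 5.87 in Cbfb-cKO, and Eppk1, a plakin that binds keratin, at 0.342, 0.229 and 0.485 and 3.99, 5.61 and 3.91. Rian and Meg3 are noncoding RNAs of one imprinted cluster on chromosome 12. Rian was at 0.684, 0.915 and 1.78 CPM in WT and 9.99, 11 and 7.04 in Cbfb-cKO, and Meg3 at 0, 0.229 and 1.29 and 13.1, 17.1 and 9.39. Both also rose in CD103-CD11b+ DCs, Rian from 1.57, 3 and 4.36 to 35.5, 93.5 and 79 CPM. Gm35853 is annotated as antisense, and the counting did not use strand, so its reads and those of its partner cannot be told apart. Adjusted p-values of Gm35853, Eppk1, Rian and Acod1 rose above 0.05 without at least 1 library, the highest being 0.069, 0.07, 0.116 and 0.111.

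Receptors of myeloid cells that come in activating and inhibitory forms had the largest share of called members among the gene families listed. Of 37 paired and inhibitory receptors tested, 10 were lower (27.0%) and none higher, and the median log2 fold change was -1.43. Over all genes tested 0.797% were lower and 0.224% higher. Trem1, Cd300a and Pilra are given above. Siglece, a sialic acid-binding inhibitory receptor (chr7:43651070-43660161, minus strand), was at 48.2, 27.7 and 23.8 CPM in WT and 1.33, 2.2 and 0 in Cbfb-cKO (log2 fold change -4.62 ± 0.54, adjusted p = 0.00436). Cd33, another inhibitory Siglec, was at 378, 322 and 156 and 64.8, 65.4 and 12.1 CPM, and Sirpa, the inhibitory receptor for CD47, at 283, 214 and 137 and 47.3, 40.3 and 5.08. In both genotypes replicate 3 had the lowest level of Cd33 and Sirpa, yet the lowest WT library stood above the highest Cbfb-cKO library. The others were Treml2 (-2.65 on the log2 scale), Trem3 (-3.80), Milr1 (-1.31) and Cd300c2 (-1.05). Siglece, Cd300a, Trem1 and Pilra passed whichever single library was left out, and the highest adjusted p of the other 6 ran from 0.106 to 0.212. In CD103-CD11b+ DCs none of the 10 was called, their WT levels were 127, 69 and 75.6 CPM for Siglece and 125, 82.3 and 68.9 for Pilra, and the effect of Cbfb loss differed between the subsets by a test of its own for Trem1, Cd300a, Pilra, Siglece and Treml2 (difference in log2 fold change -4.82, adjusted p = 0.013, for Siglece).

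**Figure D3:**
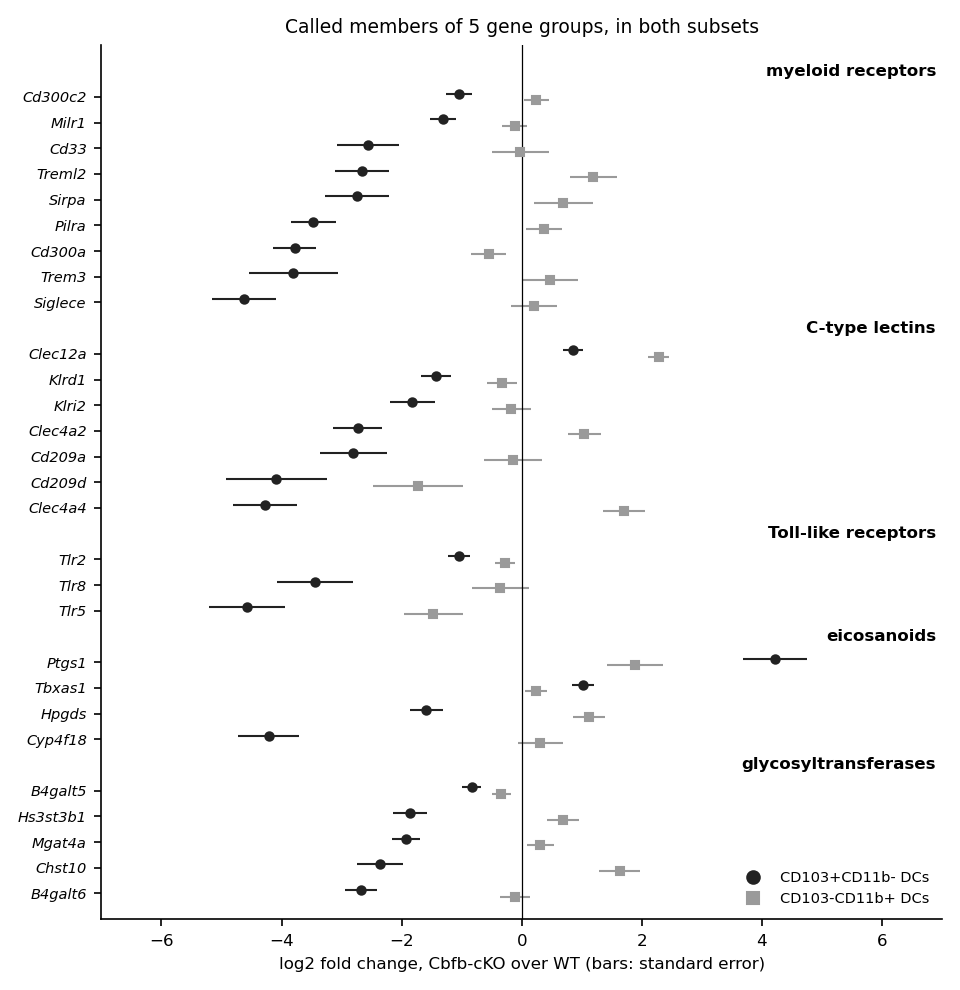
Log2 fold change of Cbfb-cKO over WT with its standard error for the called members of 5 gene groups, in CD103+CD11b- DCs (black circles) and CD103-CD11b+ DCs (grey squares). In CD103+CD11b- DCs the myeloid receptors run from -4.62 to -1.05, and their range in the other subset is -0.55 to 1.20. Trem1, without a count in Cbfb-cKO CD103+CD11b- DCs, is not drawn.

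C-type lectins, receptors for sugars and other ligands, had 6 lower and 1 higher of 54 tested, with a median of -0.04. These are 11.1% and 1.85%, against 0.797% and 0.224% of all genes tested. Clec4a4 (DCIR2), an inhibitory lectin of cDC2s, was at 6.5, 4.8 and 6.31 CPM in WT and 0, 0.488 and 0.391 in Cbfb-cKO (log2 fold change -4.27 ± 0.53, adjusted p = 0.0049), and passed whichever single library was left out. Clec4a2 (DCIR) went from 3.42, 5.26 and 4.2 to 0.444, 0.976 and 0.391 CPM. In CD103-CD11b+ DCs Clec4a4 went up, from 15.5, 9.66 and 9.6 to 36.8, 42.4 and 35.2 CPM, and the difference between the effects was -5.98 on the log2 scale (adjusted p = 0.00685). Cd209a and Cd209d, relatives of DC-SIGN, varied widely among WT libraries, with Cd209a at 67.4, 48.7 and 15 and 10.2, 5.37 and 1.96 CPM and Cd209d at 46.5, 41.2 and 8.08 and 3.11, 1.95 and 0. Klrd1 (CD94) and Klri2, members of the NK receptor complex, fell by 1.43 and 1.82 on the log2 scale. Clec12a, an inhibitory lectin that senses uric acid crystals, was the member that rose, from 111, 109 and 116 to 183, 199.9 and 226 CPM (log2 fold change 0.86 ± 0.16, adjusted p = 0.0398). Apart from Clec4a4 their highest adjusted p without 1 library ran from 0.0713 to 0.218.

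Sensors of microbes were lower in part. Among 12 Toll-like receptors 3 were lower (25%, against 0.797% of all genes tested) and the median was 0.19. Tlr5, the flagellin receptor, was at 24.6, 15.3 and 12 CPM in WT and 1.11, 0.732 and 0 in Cbfb-cKO (log2 fold change -4.57 ± 0.64, adjusted p = 0.00938), Tlr8 at 9.57, 3.89 and 7.44 and 0.666, 0.976 and 0, and Tlr2, which senses lipoproteins, at 7.18, 7.55 and 8.89 and 4.22, 3.66 and 3.52. Tlr3 and Tlr11, which cDC1s are known for, were not called: Tlr3 was at a mean of 461 CPM in WT and 577 in Cbfb-cKO, and Tlr11 at 309 and 471. Tlr5 missed without Cbfb-cKO replicate 2 alone (adjusted p = 0.0541), and Tlr2 and Tlr8 missed whichever of the 6 was left out, with highest adjusted p of 0.117 and 0.144. Of 23 NOD-like receptors and inflammasome genes, Nod1, a sensor of bacterial peptidoglycan, went from 72.8, 40.04 and 51.6 to 20.6, 16.8 and 17.2 CPM and passed whichever single library was left out, and Mefv (pyrin) from 72.5, 40.04 and 46.7 to 18, 14.4 and 13.3, with a highest adjusted p of 0.145.

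Of 15 cDC2 markers 6 were lower and 1 higher, with a median of -1.60: Irf4, Sirpa, Cd209a, Clec4a2, Clec4a4 and Epcam fell, and Clec12a rose. These are 40% and 6.67%, against 0.797% and 0.224% of all genes tested. Esam, Klf4 and Itgam had fold changes above 0 that were not called, and those of Notch2, Mgl2 and Cx3cr1 lay between -0.16 and -0.08. Cd101 and Tbx21 were not called either, but each was lower in every Cbfb-cKO than in every WT library, with log2 fold changes of -2.48 (adjusted p = 0.122) and -1.60 (adjusted p = 0.187). Irf4, the transcription factor of cDC2s, was at 209, 141 and 188 CPM in WT and 37.3, 54.2 and 66.1 in Cbfb-cKO (log2 fold change -1.78 ± 0.30, adjusted p = 0.0241). Zeb2, a repressor that opposes cDC1 fate, was at 318, 254 and 142 and 70.3, 75.7 and 25.4 CPM and was the other called gene of 24 DC lineage factors. Leaving out 1 library lost the calls of both, with highest adjusted p of 0.113 for Irf4 and 0.146 for Zeb2. The markers together summed to 1366 to 1640 CPM in WT, 1103 to 1218 in Cbfb-cKO and 2330 to 2386 in WT CD103-CD11b+ DCs. The markers differed in how far WT CD103+CD11b- DCs held them: Sirpa was at 64.0% of its mean level in WT CD103-CD11b+ DCs, Irf4 at 53.5%, Clec4a4 at 50.7% and Clec4a2 at 20.3%, but Itgam was at 4.77% and Cd101 at 4.31%. Clec12a, the listed marker that rose, was at 379.7% and so did not mark CD103-CD11b+ DCs here. Cd101 was at 3.42, 1.83 and 4.2 CPM in WT and 0, 0.976 and 0.782 in Cbfb-cKO, whereas Itgam had a log2 fold change of 0.92 and was higher in every Cbfb-cKO library (adjusted p = 0.239). Over the 164 lower genes the median of that share was 62.5%, and 126 (76.8%) had a higher mean in WT CD103-CD11b+ than in WT CD103+CD11b- DCs, against 23 of the 46 higher genes, with a median of 103%, and 54.2% of all genes tested. The highest adjusted p without 1 library ran from 0.0713 to 0.196 for the called markers other than Clec4a4. The part of any CD11b+ cells in the WT sort was not tested.

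Enzymes and receptors of eicosanoids moved both ways, 2 higher and 2 lower of 28. Each is 7.14%, against 0.224% higher and 0.797% lower over all genes tested. Beside Ptgs1, Tbxas1, thromboxane A synthase, which acts downstream of it, rose from 227, 228 and 206 to 442, 473 and 423 CPM (log2 fold change 1.02 ± 0.19, adjusted p = 0.0329). Hpgds, the prostaglandin D synthase of blood cells, fell from 76.6, 88.8 and 54.6 to 24.6, 28.3 and 19.6 CPM, and Cyp4f18, which inactivates leukotriene B4, from 28.4, 22.2 and 19.4 to 0.888, 2.44 and 0 (log2 fold change -4.21 ± 0.51, adjusted p = 0.00477). Ptgs2, the inducible cyclooxygenase, was at 153, 83.1 and 245 and 35.9, 56.1 and 12.5 CPM and was not called (adjusted p = 0.148). Ptgs1 and Cyp4f18 passed whichever single library was left out, whereas Tbxas1 missed whichever of the 6 was left out (highest adjusted p = 0.144) and Hpgds without all but WT replicate 3 (highest 0.112). Cyp4f16 was the other cytochrome P450 that fell, of 27 (highest adjusted p = 0.191).

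Sugar-modifying enzymes had 5 lower of 99 glycosyltransferases (5.05%, against 0.797% of all genes tested) and none higher, with a median of -0.07. Mgat4a, which branches N-glycans, was the most abundant, at 426, 356 and 265 CPM in WT and 89.9, 111 and 73.1 in Cbfb-cKO (log2 fold change -1.93 ± 0.24, adjusted p = 0.0049). B4galt5 and B4galt6, both lactosylceramide synthases, fell by 0.83 and 2.67 on the log2 scale. Hs3st3b1, which sulphates heparan sulphate, went from 60.5, 45.3 and 33.3 to 13.3, 9.03 and 16 CPM, and Chst10, which makes the HNK-1 epitope, from 15.7, 15.6 and 15.2 to 2.22, 3.66 and 3.13. Chst10 moved the other way in CD103-CD11b+ DCs, from 22.3, 7.33 and 20.1 to 59, 53.5 and 42.3 CPM, and the difference was -3.99 (adjusted p = 0.00986). Mgat4a and B4galt6 passed whichever single library was left out, and the highest adjusted p of the other 3 ran from 0.0655 to 0.174. In phospholipid synthesis Lpin1, a phosphatidate phosphatase, fell beside Pcyt1a, 2 of 23 genes, and its highest adjusted p without 1 library was 0.207.

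Cytokine and chemokine genes changed in a few members. Il1rn, the IL-1 receptor antagonist, fell from 33.2, 20.8 and 22.3 to 1.78, 5.37 and 0.782 CPM (log2 fold change -3.17 ± 0.43, adjusted p = 0.00845), and Il1r2, the decoy receptor for IL-1, from 202, 164 and 191 to 36.8, 23.2 and 64.1. With Il22ra2 these were the 3 lower genes (6%) of 50 in the list of interleukin and interferon receptors, and 1 (2%) was higher. Over all genes tested 0.797% were lower and 0.224% higher. Il15ra, which presents IL-15 to lymphocytes, rose from 19.8, 20.4 and 17.5 to 52.4, 100.3 and 32.9 CPM. Ccr1, a receptor for inflammatory chemokines, fell from 93.7, 70.7 and 69.5 to 5.99, 2.2 and 1.17 CPM (log2 fold change -4.53 ± 0.51, adjusted p = 0.00375), the called one of 22 chemokine receptors, and Ccl2 was the called one of 26 chemokines, at 1.03, 0.458 and 0 and 4.22, 11 and 9.78 CPM. Ccr1 and Il22ra2 passed whichever single library was left out, and the highest adjusted p of Il1rn was 0.0543, of Il1r2 0.201, of Il15ra 0.168 and of Ccl2 0.156. Il1b itself was at 202, 135 and 155 CPM in WT and 47.7, 64.4 and 86.8 in Cbfb-cKO and did not pass (adjusted p = 0.0862).

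Lists of TGF-beta, Notch, retinoic acid, early-response and integrin genes had called members, where 0.797% of all genes tested were lower and 0.224% higher. Smad7, the inhibitor of TGF-beta signalling that Smads induce, went from 105, 98.4 and 113 to 45.9, 43.9 and 66.1 CPM, 1 of 22 genes of that pathway, and Tgfbr2, at 288, 244 and 215 and 159, 166 and 142 CPM, was not called. Maml3, a Notch coactivator, went from 26.7, 19.2 and 25.4 to 9.54, 9.52 and 11 CPM and passed whichever single library was left out, 1 of 26 Notch genes. Of 17 retinoic acid genes Dhrs9 rose and Stra6l fell. Egr2, an early-response transcription factor, rose from 79.3, 74.4 and 123 to 177, 299 and 359 CPM, 1 of 23 genes of its list, and Itgad, the integrin alpha D chain, from 22.6, 19 and 12.9 to 45.5, 56.6 and 35.2, 1 of 26 integrins. Without 1 library the highest adjusted p of Smad7 was 0.0903, of Egr2 0.181 and of Itgad 0.111.

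Among transporters, 1.25% of the solute carriers outside mitochondria and 4.88% of the ABC transporters were lower, and none was higher. Of the mitochondrial carriers 2.33% were lower and 2.33% higher. Over all genes tested 0.797% were lower and 0.224% higher. Of 240 solute carriers outside mitochondria 3 were lower: Slc15a3, which exports bacterial dipeptides from endosomes, from 57.8, 38.90 and 45.8 to 10.4, 13.4 and 12.5 CPM, Slc7a11, the cystine importer, from 8.89, 19.7 and 16.8 to 3.55, 6.83 and 3.91, and the sodium-calcium exchanger Slc8a2, from 7.18, 3.89 and 6.79 to 0.444, 0.244 and 0. Slc7a11 rose in CD103-CD11b+ DCs, from 33.7, 43.6 and 55.3 to 168, 209 and 236 CPM, and the difference was -3.87 on the log2 scale (adjusted p = 0.00903). Of 43 mitochondrial carriers Slc25a26 rose and Slc25a12, the aspartate-glutamate carrier, fell, and of 41 ABC transporters Abcb1a and Abcg3 fell. Of these Slc15a3 and Slc25a26 passed whichever single library was left out, and the highest adjusted p of the others was 0.0625 for Slc8a2, 0.162 for Slc25a12, 0.161 for Abcb1a, 0.181 for Abcg3 and 0.218 for Slc7a11.

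Other lists had 1 or 2 called members, where 0.797% of all genes tested were lower and 0.224% higher. Ctnnd2, a delta-catenin of cell junctions, fell, 1 of 74 cadherins and catenins (log2 fold change -2.79 ± 0.35, adjusted p = 0.00495), and passed whichever single library was left out. It was at 162, 120.3 and 69.7 CPM in WT and 18.6, 19.5 and 11.7 in Cbfb-cKO. Oas3, an interferon-induced sensor of double-stranded RNA, rose, 1 of 28 interferon-stimulated genes, from 6.15, 3.89 and 3.23 to 9.99, 13.7 and 15.3 CPM, as did Tgtp1, an interferon-induced GTPase and 1 of 16 such genes, from 3.08, 4.58 and 4.37 to 10.4, 11.7 and 14.9. Tnfrsf21 (death receptor DR6), 1 of 41 TNF superfamily genes, rose by 1.13 on the log2 scale, and Dnajc10, a reductase of the endoplasmic reticulum, by 0.68. Of 76 orphan and adhesion receptors Adgrl3 rose by 1.58 and Gpr35 had a log2 fold change of -1.28. Prkacb, a catalytic subunit of protein kinase A, had one of -0.45. Apart from Ctnnd2 the highest adjusted p without 1 library was lowest for Dnajc10 (0.12) and highest for Prkacb (0.261).

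Many families that a DC uses every day had no call at all. These were the genes of MHC class II presentation (13 tested, median 0.12), MHC class I and cross-presentation (18, median 0.24), costimulation (19, median 0.10), NF-kB (19, median 0.14), the cell cycle (28, median 0.10), cytosolic ribosomal proteins (82, median -0.0049), mitochondrial ribosomal proteins (77, median 0.01), the respiratory chain (92, median 0.12), the proteasome (47, median 0.12), Rab GTPases (54, median 0.16), TRIM proteins (52, median 0.02) and ion channels (124, median -0.20). At 0.797% lower and 0.224% higher over all genes, few or no calls would be usual for lists of this size. In cross-presentation 17 of 18 fold changes were above 0, but none passed. One zinc finger gene of 364, Zfp819, was called.

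Of the 210 genes 34 were also called in CD103-CD11b+ DCs, which share no library with this contrast: 14 rose in both, 13 fell in both and 7 fell in CD103+CD11b- and rose in CD103-CD11b+ DCs. That is 16.2% of the calls in CD103+CD11b- DCs and 10.3% of the 331 in CD103-CD11b+ DCs, where calls made up 1.02% and 1.61% of all genes tested in the respective subsets. By smallest p, those that rose in both were Dhrs9, Aqp9 and Bank1, those that fell in both Il22ra2, Palm, a paralemmin of the plasma membrane, and 2900026A02Rik, and those that moved apart Clec4a4, Pag1 and Chst10. Il22ra2 in CD103-CD11b+ DCs was at 220.2, 114 and 227 CPM in WT and 5.16, 7.38 and 17.8 in Cbfb-cKO (log2 fold change -4.31, adjusted p = 0.00298), and the difference from CD103+CD11b- DCs, -1.92, did not pass (adjusted p = 0.35). Pag1, an adaptor that restrains Src kinases, went from 111, 101 and 78.3 to 51, 44.9 and 50.1 CPM in CD103+CD11b- and from 69.1, 70.6 and 73.3 to 165, 149 and 123 in CD103-CD11b+ DCs, and its call missed without 1 library (highest adjusted p = 0.0828). A test of the difference between the effects, over all 12 libraries, passed for 134 genes (0.651%), 114 of them more negative in CD103+CD11b- DCs. It passed for 47 of the 164 lower genes, each more negative here, and for 8 of the 46 higher genes, 6 more positive here and 2 (Itgad and Clec12a) more positive in CD103-CD11b+ DCs. For the remaining 155 called genes a difference between the subsets was not shown in this fit, and the number of differing genes rose to 328 with a block for the replicate number within each genotype, whose libraries share their numbers between the subsets.

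**Figure D4:**
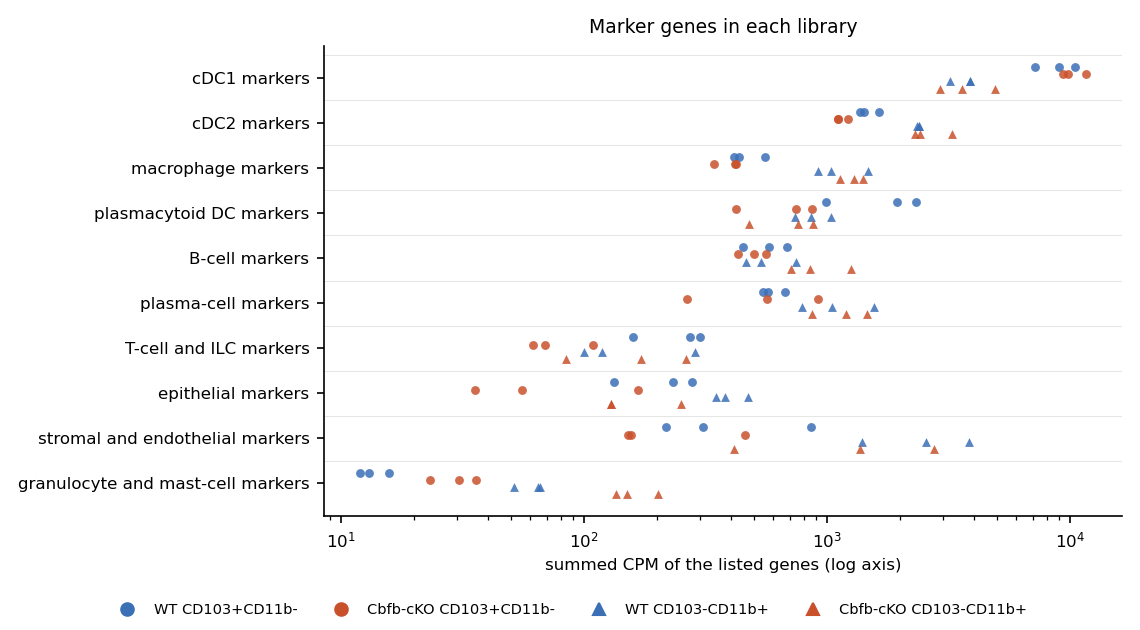
Summed CPM, on a log axis, of the marker genes of 10 cell types in each of the 12 libraries, by subset (circles CD103+CD11b-, triangles CD103-CD11b+) and genotype (blue WT, orange Cbfb-cKO). The cDC1 sums overlap between the genotypes of CD103+CD11b- DCs, while the plasmacytoid DC sums are 986 to 2316 CPM in WT and 420 to 864 in Cbfb-cKO.

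Markers of other cells moved with genotype in places. Over all genes tested, 18.1% did not overlap between the genotypes, in either direction. That share is to be set beside the markers named as separated below. All 10 plasmacytoid DC markers had a fold change below 0, none was called, and their sum was 986 to 2316 CPM in WT and 420 to 864 in Cbfb-cKO, with Siglech at 464, 358 and 159.6 and 111, 149.9 and 18 CPM and Tcf4 at 733, 651 and 318 and 227, 275 and 118. Spib, Ly6c2, Ccr9, Ly6d, Bst2, Siglech, Tcf4 and Klk1 were lower in every Cbfb-cKO than in every WT library. Cox6a2 and Pacsin1 overlapped. The 14 T-cell and ILC markers summed to 159 to 299 CPM in WT and 61.8 to 109 in Cbfb-cKO, a difference held mostly by Il7r and Cd4, with Ncr1 at 0 in all 6 libraries. Over that list the median log2 fold change was -0.11, none was called, and the T-cell receptor genes overlapped between the genotypes, with means of 5.56 CPM in WT and 6.6 in Cbfb-cKO for Cd3e and 4.86 CPM in WT and 6.55 in Cbfb-cKO for Trac. Fold changes were below 0 for 10 of the 14, and Il7r, Thy1 and Lck were lower in every Cbfb-cKO than in every WT library, with means of 9.2 CPM in WT and 1.86 in Cbfb-cKO for Thy1 and 9.83 CPM in WT and 5.01 in Cbfb-cKO for Lck. Epithelial markers summed to 133 to 278 and 35.6 to 166 CPM, which followed Cdh1 and Epcam. The rest of that list went mostly the other way, with 5 of 15 fold changes of the whole list below 0, a median of 2.15 over it, and Vil1, Krt20 and Fabp2 higher in every Cbfb-cKO than in every WT library, though none of these 3 was called. Cbfb-cKO replicate 2 held most of the counts of several others, such as Reg3g, at 0.222, 26.4 and 0 CPM in Cbfb-cKO replicates 1 to 3, and Krt19, at 0.444, 11.2 and 0. Sums were for stromal and endothelial markers 216 to 860 CPM in WT and 151 to 460 in Cbfb-cKO, for macrophage markers 415 to 555 and 340 to 422, for B-cell markers 448 to 681 and 429 to 562, and for plasma-cell markers 546 to 668 and 265 to 917. All 11 stromal and endothelial fold changes were below 0, with a median of -0.73 and none called, and the endothelial genes Pecam1 and Cdh5 were lower in every Cbfb-cKO library, with means of 155 CPM in WT and 61.6 in Cbfb-cKO for Pecam1 and 83 CPM in WT and 26 in Cbfb-cKO for Cdh5. Among the 15 macrophage markers 8 were below 0, and Csf1r, the receptor for macrophage colony-stimulating factor, was at a mean of 40.8 CPM in WT and 4.18 in Cbfb-cKO without overlap and did not pass (log2 fold change -3.18, adjusted p = 0.0608). Granulocyte and mast-cell markers summed to 12 to 15.8 CPM in WT and 23.1 to 35.9 in Cbfb-cKO, with S100a8 and S100a9 at 0. Most of that gap was Siglecf, at 5.81, 11.7 and 5.01 CPM in WT and 25.5, 29.5 and 12.9 in Cbfb-cKO, which was not called (adjusted p = 0.121). WT replicate 3 was the lowest WT library for 112 of the 164 lower genes (68.3%, against 32.8% of all genes tested), and it was also the lowest for 7 of the 10 marker sums, those of cDC1s and cDC2s included. The part of these cells in the lower genes was not tested.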

How the data were processed

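Per the labels and the study's methods, RNA of DCs sorted from the gut was turned into libraries by a bulk form of RamDA-seq. Base calls came from CASAVA 1.8, reads were trimmed with Trim Galore, aligned with STAR 2.7 to mm10 (GRCm38), cleared of low mapping quality and duplicates, and counted without strand by HTSeq. The authors deposited raw counts per gene for each of the 12 libraries, and the summary lines of the counter were dropped here. Reads lying on no gene feature were 59.7 to 66.1% of the counter's reads. Symbols and positions came from GENCODE M21 for 53706 of 53801 genes.

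Genes that reached 5 counts in any library were fitted in 1 model of 4 groups with edgeR 4.0.16 (TMM, quasi-likelihood F-test, R 4.3.3), with Benjamini-Hochberg adjustment over all 20580. Calls were made at an FDR under 0.05 with a fold over 1.3, while the difference of effects needed the FDR alone. The standard error is the size of the log2 fold change over the root of the F statistic. The fit was tested on simulated counts. The 3 samples per group are separate mice. Named genes were Cbfb and the Runx genes, the 5 of smallest p per direction in each of 3 bins of level, called members of the 70 lists (but for the list not reported), the 3 most abundant called genes per direction, and the 3 of smallest p per combination of directions in both subsets. Other genes were named after their values were seen. Members and lists were chosen with earlier results of these data known. Alternatives were RLE scaling, 3 other filters, DESeq2 1.42.0, the 6 libraries alone, the replicate number as a block, other limits and leaving out libraries. A count of 0 allows up to 3 counts, which covers counting error only. The result of 1 gene list is not reported here.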

Additional observations from a re-analysis of the deposited data

Results flagged for a closer look

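The effect of Cbfb loss differed between CD103+CD11b- and CD103-CD11b+ DCs for some of the named genes by a test of the difference itself (edgeR, FDR under 0.05). Each value is the log2 fold change in CD103+CD11b- DCs minus that in CD103-CD11b+ DCs. It was below 0 and, Trem1 aside, largest in size for Clec4a4 (-5.98), Siglece (-4.82), Ccr1 (-4.64), Cyp4f18 (-4.53), Chst10 (-3.99), Mcemp1 (-3.91), Slc7a11 (-3.87), Treml2 (-3.85) and Pilra (-3.85). It was of middle size for Clec4a2 (-3.78), Il1rn (-3.70), Cd300a (-3.23), Itgad (-3.19), Stra6l (-2.89), Hpgds (-2.72), Arap2 (-2.57), B4galt6 (-2.57), Hs3st3b1 (-2.55) and Slc15a3 (-2.31). It was smallest for Rnf43 (-2.26), Mgat4a (-2.24), S100a6 (-2.14), Arhgap6 (-2.14), Cyp4f16 (-2.03), Pag1 (-2.03), Sorl1 (-1.99), Abcg3 (-1.50), Clec12a (-1.42), Acap1 (-1.33), Arhgap9 (-1.23) and Pcyt1a (-0.98). It was above 0 for Slc25a26 (1.06), Gm35853 (2.0) and Eppk1 (4.30). For Trem1 the fitted difference was -9.52, but the gene had no count in Cbfb-cKO CD103+CD11b- DCs, so that value depends on the fit, is no bound and is not ranked with the others. Gm35853 is annotated as antisense and was counted without strand. No cause of these differences was tested.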

How the results depend on the processing

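The 46 higher, 164 lower and 134 differing genes moved by over 1.5 times under some choices. DESeq2 gave 217 higher, 435 lower and 508 differing genes, and 207 of the 210 calls were among them. The fit with the replicate number as a block gave 124, 398 and 330, and kept all 210. Numbers matched across genotypes did not pair the samples (r of 0.132, -0.091 and 0.070 for the deviations of same-numbered CD103+CD11b- libraries). Same-numbered CD103+CD11b- and CD103-CD11b+ libraries of one genotype correlated at 0.357, -0.085 and 0.352 in WT and 0.112, 0.321 and 0.354 in Cbfb-cKO, and no label says whether they share a mouse. A block within each genotype, chosen after seeing the data, gave 328 differing genes. Without a filter beyond 1 count 261 were lower and 205 differed. The 6 libraries alone gave 78 higher genes and kept 131 of the 210 calls, and an FDR under 0.01 left 6 higher and 35 lower. Leaving out 1 of the 6 CD103+CD11b- libraries gave 5 to 36 higher and 39 to 217 lower genes. The number of differing genes ran from 29 to 208 with 1 library left out. Without replicate 3 of both CD103+CD11b- groups, also chosen after seeing the data, 21 were higher. The log2 fold change of Cbfb became -0.029 there, and that of Runx3 ran from -0.23 to 0.023 when 1 library was left out, the latter without WT replicate 1. Neither was called in any direction, and the cause was not tested. All 210 calls kept their sign wherever they were tested. No gene under 1 CPM was called, where the median standard error was 1.16, and the part of depth was not tested.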
